A study of Mus musculus with 4 samples.

Results

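The Slc15 genes encode proton-coupled oligopeptide transporters, and the 3 examined here, Slc15a1, Slc15a2 and Slc15a4, were taken by symbol from the 32285 genes of the deposited count matrices. Slc15a2 was picked because it was nearly absent from the 2D libraries in an earlier look at the same counts, so its level in 2D against 0D is given as a description with no test. Slc15a1 and Slc15a4 were added as members of the same family. The files hold 5 Slc15 genes in all, and the remaining ones, Slc15a3 and Slc15a5, were too low to compare. The cells came from mouse small-intestinal crypts, the glands at the base of the gut lining. According to the design text the mice were sampled before sleep deprivation and after it. There are 4 libraries, replicates 1 and 2 of the group 2D and replicates 1 and 2 of the group 0D, written below as 2D-1 and 2D-2 and as 0D-1 and 0D-2. The labels used here give tissue and group but no strain, genotype, sex, age or number of animals, and do not spell out D. All 4 libraries share the crypt preparation with 10 mM EDTA and the 3′ droplet kit.

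Slc15 proteins use the inward proton gradient to carry small peptides across a membrane. Slc15a1 (PEPT1) is the low-affinity, high-capacity carrier of the enterocyte brush border and takes up the dipeptides and tripeptides that digestion leaves. Slc15a2 (PEPT2) is a high-affinity carrier best known from the kidney tubule, the choroid plexus and, in the gut wall, enteric glia. Slc15a4 (PHT1) sits in endosomes and lysosomes, carries histidine and peptides such as bacterial cell wall fragments, and in immune cells is needed for signalling by endosomal Toll-like receptors.

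The 3 genes lie on different chromosomes, all on the minus strand, and their promoters are shown because the 3 starts differ in CpG and GC content. Each line is the RefSeq GRCm38.p6 window from 250 bases before to 50 bases after the gene's start, 5′ to 3′ on the strand of the gene, and capitals mark the GGGCGG motif (the GC box bound by Sp1) on either strand. The windows are chr14:121505205-121505504 for Slc15a1, chr16:36784913-36785212 for Slc15a2 and chr5:127617343-127617642 for Slc15a4, whose RefSeq start lies inside the longer span that GENCODE gives.
Slc15a1: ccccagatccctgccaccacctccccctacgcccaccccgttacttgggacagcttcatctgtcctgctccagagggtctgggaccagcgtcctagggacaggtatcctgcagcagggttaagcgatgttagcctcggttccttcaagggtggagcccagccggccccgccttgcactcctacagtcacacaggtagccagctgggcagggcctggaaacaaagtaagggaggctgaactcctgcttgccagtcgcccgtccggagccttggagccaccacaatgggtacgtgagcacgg
Slc15a2: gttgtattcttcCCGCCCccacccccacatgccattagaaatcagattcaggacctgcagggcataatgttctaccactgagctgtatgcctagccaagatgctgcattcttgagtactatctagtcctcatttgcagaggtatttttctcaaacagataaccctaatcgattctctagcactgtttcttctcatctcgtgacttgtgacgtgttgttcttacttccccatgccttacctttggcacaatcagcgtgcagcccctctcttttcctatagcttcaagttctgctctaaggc
Slc15a4: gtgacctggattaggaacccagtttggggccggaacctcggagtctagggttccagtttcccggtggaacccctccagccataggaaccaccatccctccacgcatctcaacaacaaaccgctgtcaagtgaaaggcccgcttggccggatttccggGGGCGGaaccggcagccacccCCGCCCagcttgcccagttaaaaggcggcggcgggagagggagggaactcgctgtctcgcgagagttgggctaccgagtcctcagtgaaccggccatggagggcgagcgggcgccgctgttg
The Slc15a2 window had 5 CpG dinucleotides and 46.3% GC, below the medians of 7 CpG and 52.7% GC over 32851 RefSeq promoters of the same length. The Slc15a1 window had 12 CpG and 62.7% GC, and the Slc15a4 window had 23 CpG and 64.0% GC. GGGCGG was found 1 time in the Slc15a2 window, 2 times in the Slc15a4 window and in none of the Slc15a1 window, against 35.7% of all windows with at least 1 match. TATAAA and CCAAT, searched on both strands like GGGCGG, matched in none of the 3 windows and in 13.6% and 37.4% of all windows. A match or its absence describes only these letters.

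After removal of barcodes with fewer than 500 genes or more than 20% mitochondrial UMIs (unique molecular identifiers, which count captured transcript molecules), 7025 and 7988 cells remained in 2D and 7586 and 7132 in 0D, with 93090534 to 113758758 UMIs per library. Median UMIs per cell were 11117 and 9247.5 in 2D against 12115.5 and 13340.5 in 0D. Pairs of libraries shared 13 to 16 kept barcodes. Cells were placed in 8 marker-gated classes: a cell joined the class whose marker score was highest if that score was at least 1 SD above the mean of all kept cells and led the next by at least 0.5 SD. The gates took 2532 stem, 3266 dividing, 2999 enterocyte, 3012 Paneth, 6252 goblet, 2482 enteroendocrine, 1069 tuft and 106 immune cells, and 8013 cells (27.0%) stayed ungated. Every marker was enriched in its own gate, but 12 to 762 cells per gate lay within 0.1 SD of the gate's limits. The mix of cells differed between the groups, with 618 and 422 enterocyte-gated cells in 2D against 1025 and 934 in 0D, and 891 and 1256 Paneth-gated cells in 2D against 424 and 441 in 0D. Levels are given as CPM, UMIs of a gene per 1000000 UMIs of the same cells, with exact Poisson intervals that cover counting error only.

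Slc15a2 was nearly absent from 2D crypts and present at a low level in 0D crypts. It had 10 UMIs in 2D-1 and 1 UMI in 2D-2, against 307 UMIs in 0D-1 and 204 UMIs in 0D-2. As a level this was 0.0904 and 0.0107 CPM in 2D, against 2.70 and 1.84 CPM in 0D. Both 2D libraries lay far below both 0D libraries; of 15454 genes tested in all cells, 54.5% had groups that did not overlap in either direction. The group means were 0.0506 ± 0.0563 CPM in 2D, against 2.27 ± 0.607 CPM in 0D (SD, n = 2 each). The pooled 2D level was 2.37% of the 0D level (95% interval 1.18 to 4.28), or 42.1-fold lower. At the pooled 0D rate, 252 UMIs would have been counted in 2D-1 and 212 in 2D-2. 2D-1 alone stood at 3.97% of 0D (1.89 to 7.37) and 2D-2 alone at 0.472% (0.0119 to 2.64), so the 2D libraries were each low on their own.

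Cells with a Slc15a2 UMI were rare in 0D as well. They numbered 10 and 1 in 2D (0.142% and 0.0125% of kept cells), against 287 and 177 in 0D (3.78% and 2.48%). When every cell with at least 3000 UMIs was thinned to that number, the share was 0.0157% and 0% in 2D and 1.02% and 0.727% in 0D. No cell held more than 3 Slc15a2 UMIs, and each of the 11 positive 2D cells held 1. Those cells were deep, with a median of 24209.5 UMIs in 2D-1 against 11117 for all cells of that library. None of their barcodes occurred among the kept cells of the 0D libraries.

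**Figure D1:**
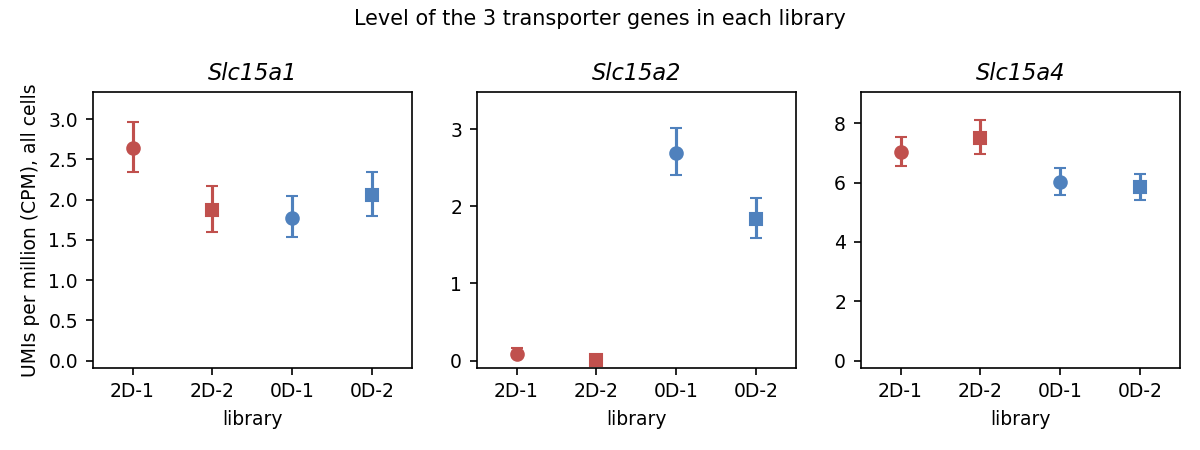
CPM of Slc15a1, Slc15a2 and Slc15a4 over all kept cells of each library, with 95% exact Poisson intervals; red marks 2D and blue 0D, circles replicate 1 and squares replicate 2. Slc15a2 is at 0.0904 and 0.0107 CPM in 2D against 2.70 and 1.84 CPM in 0D, while the Slc15a1 groups overlap and the 2D libraries are the higher for Slc15a4.

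The 0D signal was spread over the epithelium and, measured as CPM, was highest in enteroendocrine, stem and goblet cells. Enteroendocrine-gated cells, which make gut hormones, had 5.89 and 4.49 CPM of Slc15a2 in 0D-1 and 0D-2. Stem-gated cells had 3.60 and 3.82 CPM and goblet-gated cells, which secrete mucus, had 4.28 and 2.51 CPM in the same libraries. The stem and goblet ranges overlapped, and the enteroendocrine libraries lay above both. The enteroendocrine level rests on 32 UMIs in 0D, and the order of these classes was not tested. Below them came enterocyte-gated cells with 1.59 and 0.940 CPM, dividing cells with 1.27 and 1.19 CPM and Paneth-gated cells with 1.47 and 0.633 CPM in 0D. These last ranges overlapped one another, and tuft-gated cells, with 3 UMIs in 0D, could not be placed. No class that should lack Slc15a2 was available to set a level for free RNA in the droplets, and its part in the 0D signal was not tested. As CPM the 0D level was 5.19 ± 0.986 in enteroendocrine-gated and 1.05 ± 0.595 in Paneth-gated cells (SD, n = 2). Their depths differed, with 0D medians of 5514.5 and 5857 UMIs in enteroendocrine-gated and 33554 and 27166 UMIs in Paneth-gated cells. The mean 0D share of cells with a UMI was 4.76% in stem, 3.62% in goblet, 3.26% in Paneth and 2.91% in enteroendocrine gates. It was 2.20% in dividing and 2.07% in enterocyte gates. Enteroendocrine-gated cells were thus highest in CPM but not in share.

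In the stem, dividing, enterocyte, Paneth and goblet gates, both 2D libraries lay below both 0D libraries. Of all genes compared, 45.9% did not overlap in either direction in stem, 42.3% in dividing and 44.2% in enterocyte gates. In Paneth and goblet gates these shares were 45.9% and 45.3%. The gates divide the same UMIs for which Slc15a2 was picked, so they do not repeat the finding independently. Goblet-gated cells had 1 and 0 UMIs in 2D against 73 and 50 in 0D, which puts 2D at 1.03% of 0D (0.0260 to 5.87). Stem-gated cells had 2 and 0 UMIs in 2D against 49 and 41 in 0D, at 4.44% (0.530 to 16.5). Enteroendocrine-gated cells had 1 and 0 UMIs in 2D against 17 and 15 in 0D, at 2.12% (0.0522 to 12.7). The absorptive and Paneth lineages showed the same near absence. Enterocyte-gated cells had 1 and 0 UMIs in 2D against 28 and 16 in 0D, and Paneth-gated cells had 1 and 0 in 2D against 22 and 9 in 0D. Dividing cells held the most 2D signal, 3 and 1 UMIs against 24 and 22 in 0D, at 11.3% (2.96 to 31.1). Ungated cells had 1 and 0 UMIs in 2D against 91 and 50 in 0D. In tuft-gated cells 0 UMIs in 2D stood against 3 in 0D, too few to tell. Whether the classes differ in their 2D to 0D ratio was not tested, and the intervals overlap.

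**Figure D2:**
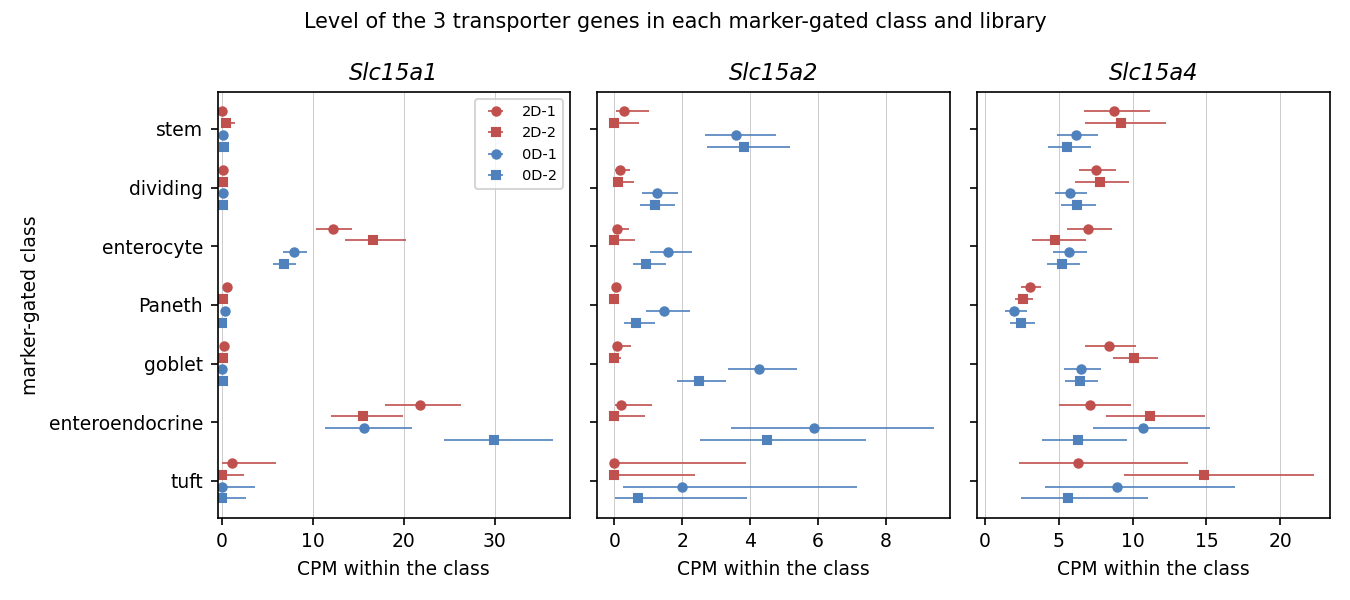
CPM of the 3 genes within each of the 7 epithelial gates (rows), with 95% exact Poisson intervals; red marks 2D and blue 0D, circles replicate 1 and squares replicate 2. Slc15a1 is found mainly in the enterocyte and enteroendocrine gates, Slc15a2 is near 0 in every 2D row, and Slc15a4 is detected in every row.

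Near absence on this scale was found for no other gene scanned. All genes with at least 100 UMIs in each 0D library were scanned for those whose 2D libraries were both at or below 1/8 of the lower 0D library. Slc15a2 was the 1 gene found among 11822 (0.00846%), as its selection implies. Its higher 2D library stood at 4.91% of its lower 0D library. The next gene was Lct, the brush-border lactase, at 26.1%, with 0.588 and 0.655 CPM in 2D against 2.92 and 2.51 CPM in 0D. Hsd3b3, a steroid dehydrogenase, followed at 34.2%. In the opposite direction 0 of 11540 genes were found (0%). At a looser setting of 1/4 and 50 UMIs, chosen after the values were seen, Slc15a2 was again the 1 gene near absent in 2D (0.00781% of 12811) and Ly6m, a Ly6-family gene, the 1 near absent in 0D (0.00798% of 12538), with 7.30 and 12.9 CPM in 2D against 0.993 and 0.487 CPM in 0D.

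**Figure D3:**
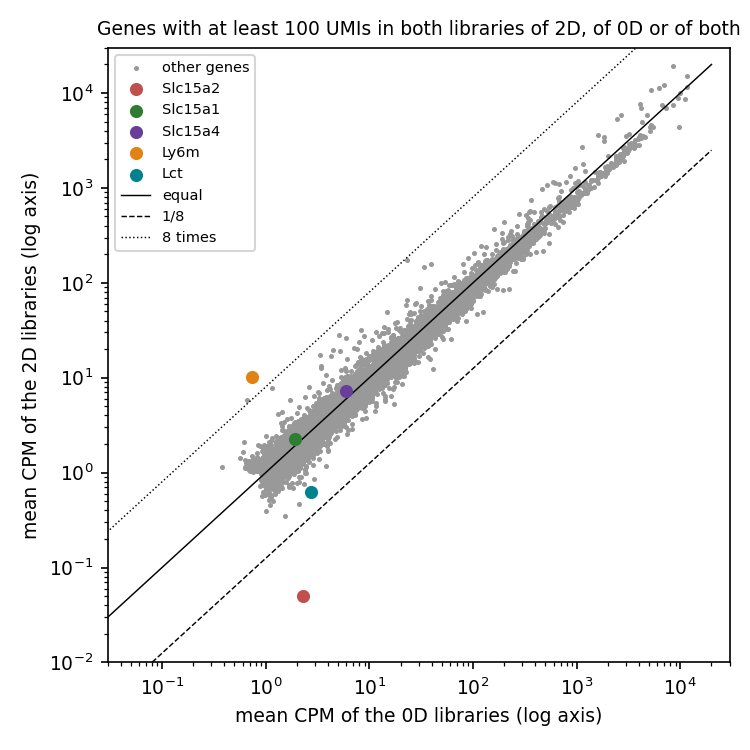
Mean CPM of the 2D libraries against mean CPM of the 0D libraries for genes with at least 100 UMIs in both libraries of 2D, of 0D or of both (log axes), with lines for equal levels, 1/8 and 8 times. Slc15a2, at 0.0506 CPM in 2D against 2.27 CPM in 0D, lies below the 1/8 line. Ly6m and Lct are the nearest genes by the scan in each direction. The scan compared single libraries, and by the group means drawn here Ly6m lies above the 8 times line.

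The genes around Slc15a2 did not share its near absence. In GENCODE M21 on GRCm38 (mm10) Slc15a2 (ENSMUSG00000022899) spans chr16:36750177-36784962. Ildr1, an immunoglobulin-domain receptor gene and its nearest neighbour on one side, had 493 and 384 UMIs in 2D against 427 and 490 in 0D. Eaf2, an elongation factor gene and the nearest on the other side, had 39 and 25 UMIs in 2D against 40 and 36 in 0D. Iqcb1, a ciliary gene that lies within the span of Eaf2 on the opposite strand, had 157 and 152 UMIs in 2D against 243 and 214 in 0D. Golgb1, which encodes the Golgi protein giantin, had 204 and 190 CPM in 2D against 164 and 183 CPM in 0D. The log2 differences, 2D over 0D, were 0.18 for Ildr1, -0.01 for Eaf2, -0.30 for Iqcb1, 0.30 for Golgb1 and -0.22 for 4930565N06Rik. Casr, Gm49662, Cd86, Stfa3 and 2600002D14Rik, the rest of the 5 neighbours on either side, had at most 12 UMIs per library. With a start or end within 1 Mb of the Slc15a2 start the files hold 41 genes, of which 21 besides Slc15a2 passed the count filter. Their log2 differences ran between -0.42 and 0.88 with a median of 0.02, and 12 lay above 0, against 50.8% of all 15454 genes tested. Whether reads were assigned by strand is not given in the sources used here, so Eaf2 and Iqcb1 counts may share reads.

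**Figure D4:**
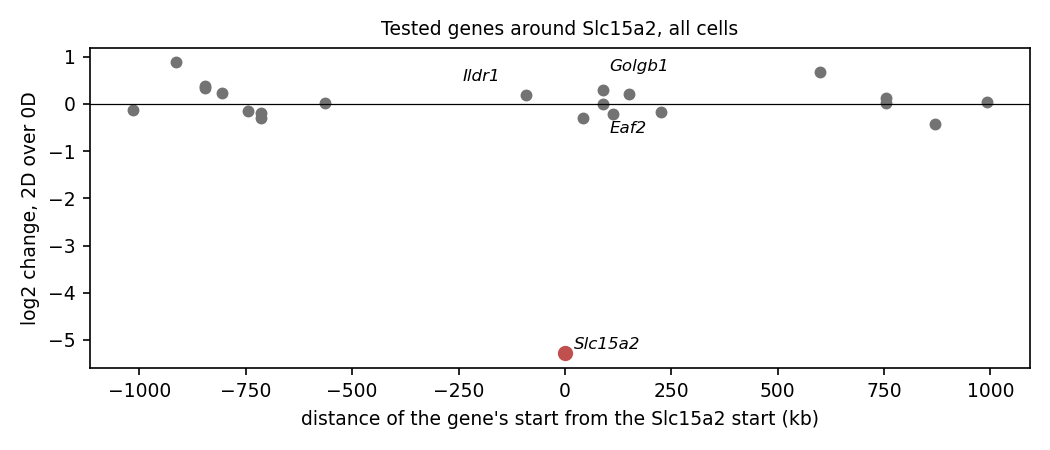
Log2 difference, 2D over 0D, of each tested gene with its start or end within 1 Mb of the Slc15a2 start, in all cells, against the distance of its start from the Slc15a2 start in kb along the chromosome. Slc15a2 (red) is at -5.28, and the other 21 genes (grey) lie between -0.42 and 0.88.

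Genes that differ between laboratory mouse strains or between sexes were read in the same libraries, since no label used here gives either. Xist, the X-inactivation RNA of female cells, was at 666 and 606 CPM in 2D, against 633 and 594 CPM in 0D. The Y-linked genes Ddx3y, Eif2s3y and Kdm5d were at 0 UMIs in every library and Uty had 1 UMI, in 0D-2. Tsix, the antisense partner of Xist, had 18.3 and 20.5 CPM in 2D against 27.6 and 29.5 CPM in 0D. Of 13 strain-dependent symbols 9 were in the files. Nnt, Wdfy1, Ide and Glo1, the best counted of them, showed no near absence in 1 group. Nnt, a mitochondrial transhydrogenase gene that carries a deletion in C57BL/6J, had 2.41 and 2.03 CPM in 2D against 2.00 and 1.73 CPM in 0D. Wdfy1 had 7.83 and 5.69 CPM in 2D against 6.42 and 6.53 CPM in 0D. Ide, the insulin-degrading enzyme, had 38.1 and 51.4 CPM in 2D against 33.4 and 36.0 CPM in 0D, and Glo1, a glyoxalase, had 124 and 107 CPM in 2D against 139 and 144 CPM in 0D. Ifi202b and Entpd4b were at 0 and Entpd4 and Nlrp12 had 1 UMI each, too few to show an absence in 1 group. Cyfip2 had 6 to 12 UMIs per library. A difference in genetic background, a change in Slc15a2 transcription and a difference in how the libraries were made or counted cannot be told apart with these libraries.

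Several markers of gut wall cells outside the epithelium were at or near 0 in both groups. The glial marker Sox10 had 0 UMIs in both 2D libraries and 1 in 0D, Gfap had 1 and 2 UMIs in 2D against 3 and 3 in 0D, and S100b had 5 and 2 in 2D against 7 and 10 in 0D. The stromal gene Dcn was at 0 everywhere and Col1a1 at 1 to 4 UMIs. These levels sit beside 511 Slc15a2 UMIs in 0D. Among immune markers the plasma cell genes were uneven, with Igkc at 0.995 and 69.9 CPM in 2D against 43.5 and 46.0 CPM in 0D. Igkc was low in 2D-1 alone, and its part in the Slc15a2 difference was not tested.

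Genes whose level across the 7 epithelial gates and 4 libraries most resembled that of Slc15a2 were compared by Pearson's r of log2(CPM + 1) over 28 sums, among 12488 genes with at least 200 UMIs. The closest was Xlr3a, an X-linked gene, at r = 0.71, followed by the ribosomal RNA-like locus Gm42418 at 0.65, Gm20536 at 0.59, Cdk5rap1 at 0.56 and Gm36738 at 0.53. The points share libraries and depth. Over all cells Xlr3a had 0.506 and 1.82 CPM in 2D against 5.78 and 1.87 CPM in 0D. Cdk5rap1, which encodes an RNA-modifying enzyme, had 3.60 and 2.20 CPM in 2D against 7.19 and 6.31 CPM in 0D. Gm42418 had 5157 and 3594 CPM in 2D against 9541 and 10057 CPM in 0D. Each of these 3 had a lower mean in 2D, by a smaller ratio than Slc15a2. Slc15a2 was picked for its low 2D level, so likeness to it favours genes that are lower in 2D. Their direction is therefore no separate result. For Xlr3a the 1.87 CPM of 0D-2 was close to the 1.82 CPM of 2D-2.

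Slc15a1 over all cells was not separated between the groups. It had 292 and 174 UMIs in 2D against 202 and 228 in 0D, or 2.64 and 1.87 CPM in 2D against 1.78 and 2.06 CPM in 0D. The groups overlapped, and 2D-1 was the highest library. The log2 difference in edgeR's quasi-likelihood test was 0.34 ± 0.18 (SE, adjusted p = 0.341 with Benjamini-Hochberg adjustment over 15454 genes). In that comparison 0 genes passed an adjusted p of 0.05 (0%), while 3132 had an unadjusted p under 0.05 and DESeq2 called 703. The Slc15a1 gene (ENSMUSG00000025557) spans chr14:121459621-121505252.

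Slc15a1 was a gene of enterocyte-gated and enteroendocrine-gated cells. Of its UMIs 57.0% lay in enterocyte-gated cells and 35.6% in enteroendocrine-gated cells, 92.6% in both together. Goblet-gated cells, which should lack it, had 0.178 and 0.0559 CPM in 2D against 0 and 0.150 CPM in 0D. A Slc15a1 UMI was seen in 0.168% and 0.0538% of goblet-gated cells in 2D and in 0% and 0.188% in 0D, at median depths of 8181 and 9640 UMIs in 2D and 10718 and 12602 UMIs in 0D. A count of 0 among the 17066754 UMIs of the 0D-1 goblet gate allows up to 0.176 CPM. Stem, dividing, Paneth and tuft gates averaged at most 0.528 CPM in either group. The immune gate had 4 UMIs in 0D-1 and 0 in the other libraries.

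In enterocyte-gated cells Slc15a1 was higher in both 2D libraries, but the difference did not pass the test. It had 12.2 and 16.6 CPM in 2D against 7.94 and 6.81 CPM in 0D, or 14.4 ± 3.11 CPM in 2D against 7.38 ± 0.796 CPM in 0D (SD, n = 2 each). The ranges did not overlap, as was so for 44.2% of 11553 genes tested in these cells. The share of these cells with a Slc15a1 UMI was 15.4% and 13.0% in 2D against 10.5% and 8.67% in 0D, far above the goblet shares. Median depths were 18778 and 11784.5 UMIs in 2D and 13323 and 14724 UMIs in 0D. After thinning to 3000 UMIs the shares were 2.93% and 4.10% in 2D and 1.70% and 1.58% in 0D, again with no overlap. The log2 difference was 0.93 ± 0.20 (SE, edgeR adjusted p = 0.163, unadjusted p = 0.00164), where 5 genes passed (0.0433%) and 1463 had an unadjusted p under 0.05 (12.7%). Leaving out 2D-1 gave a log2 difference of 1.18 and leaving out 2D-2 gave 0.71. Leaving out 0D-1 or 0D-2 gave 1.07 and 0.82. Each of these fits left a lone library in a group, so only the size of the difference is given.

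Other values also differed between the groups in the enterocyte gate, and their part in the Slc15a1 difference was not tested. Summed over 9 Paneth markers, these cells had 3729 and 5784 CPM in 2D against 1615 and 2050 CPM in 0D. All 9 lay above 0 with a median log2 difference of 1.23, against 50.1% of all genes above 0. Of these 1 passed, the defensin gene Defa22, at 1.17 (edgeR adjusted p = 0.0456). The Paneth markers were not particular to this gate. Over all cells all 9 also lay above 0, with a median of 0.97, against 50.8% of all genes. In enteroendocrine-gated cells they summed to 12077 and 11204 CPM in 2D against 4563 and 4651 CPM in 0D. In enterocyte-gated cells the 12 enterocyte markers summed to 9522 and 10898 CPM in 2D against 11710 and 11383 CPM in 0D. Paneth-gated cells themselves had 16 Slc15a1 UMIs in 2D and 4 in 0D. In the enterocyte gate the 11 enteroendocrine markers summed to 73.5 and 88.0 CPM in 2D against 150 and 126 CPM in 0D. Of them 7 lay below 0 and 4 above, against 50.1% of all genes above 0. Fabp6, the bile acid binding protein of the ileum, had 621 and 177 CPM in 2D against at most 209 CPM in 0D, and Gata4, a gene of the proximal small intestine, had 46.2 and 45.1 CPM in 2D against 45.8 and 46.5 CPM in 0D. Slc10a2, the ileal bile acid transporter, had 4.36 and 2.14 CPM in 2D against 0.624 and 1.06 CPM in 0D, with no overlap.

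Within enteroendocrine-gated cells Slc15a1 was concentrated in those led by Gcg, the proglucagon gene of L cells. The gate as a whole had 21.8 and 15.5 CPM in 2D against 15.6 and 30.0 CPM in 0D, and the groups overlapped. Cells were split by which of 7 hormone or endocrine genes had the most UMIs, with at least 2. The 80 Gcg-led cells had 342 and 241 CPM of Slc15a1 in 2D against 257 and 238 CPM in 0D. They held 42.6% of the Slc15a1 UMIs of the gate, and 62.5% of them had at least 1 Slc15a1 UMI. Every library showed this high level in Gcg-led cells, with the groups overlapping in range. At a median depth of 5894.5 UMIs these cells were no deeper than Cck-led cells at 6004 UMIs.

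Cck-led cells, which make cholecystokinin, had 24.8 and 34.3 CPM of Slc15a1 in 2D against 17.6 and 61.2 CPM in 0D. Sst-led cells, which make somatostatin, were uneven between libraries, with 131 and 11.7 CPM in 2D against 30.7 and 128 CPM in 0D, on 3 UMIs in 2D-2 and 2 in 0D-1. Gip-led cells had 5.82 and 19.2 CPM in 2D against 9.34 ± 2.33 CPM in 0D (SD, n = 2). Ghrelin-led (Ghrl) cells averaged 8.50 ± 0.117 CPM in 2D against 7.35 ± 0.556 CPM in 0D (SD, n = 2 each). In the 903 cells led by Tph1, the serotonin-synthesis gene of enterochromaffin cells, Slc15a1 was pooled at 2.22 CPM with 1.11% positive, at a median depth of 5036 UMIs. In every library the Gcg-led cells lay above the Sst-led and Cck-led cells, whereas Sst-led and Cck-led cells overlapped each other.

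**Figure D5:**
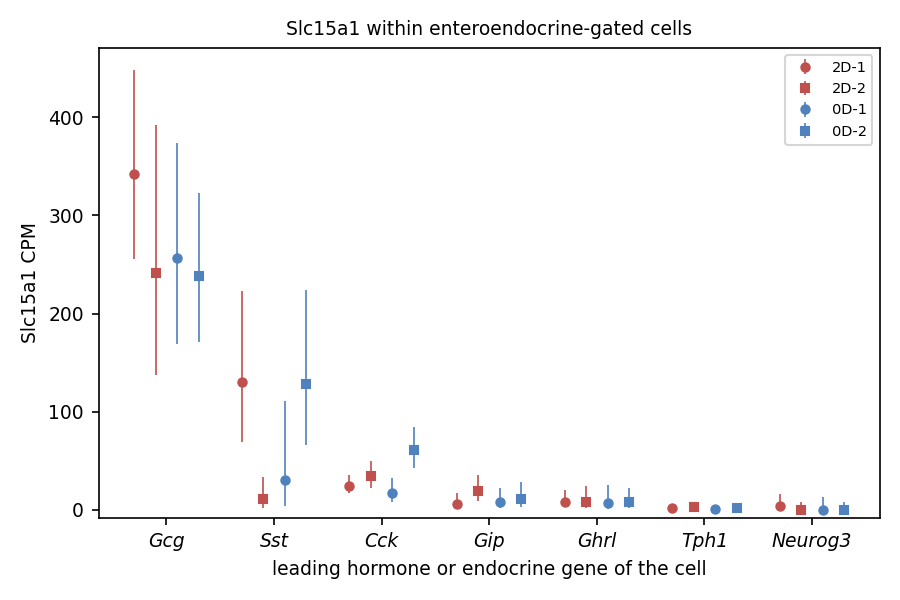
Slc15a1 CPM of enteroendocrine-gated cells grouped by their leading hormone or endocrine gene, per library, with 95% exact Poisson intervals; red marks 2D and blue 0D, circles replicate 1 and squares replicate 2. Gcg-led cells stand at 238 to 342 CPM in all 4 libraries, and Tph1-led and Neurog3-led cells near 0.

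The genes whose pattern over the 28 sums was most like that of Slc15a1 were Slc6a19 (r = 0.93), Rnd2 (0.93), Ceacam20 (0.92), Cyp2d26 (0.92) and Sema6a (0.91). Slc6a19 encodes B0AT1, the main neutral amino acid transporter of the brush border. In enterocyte-gated cells it had 12.0 and 17.4 CPM in 2D against 9.42 and 10.8 CPM in 0D, with no overlap and a log2 difference of 0.50 ± 0.20 (SE, edgeR adjusted p = 0.359).

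Genes that make or use the same peptides were read in enterocyte-gated cells by list, and none passed the test. Of 11 brush-border and secreted peptidases tested 10 lay above 0, against 50.1% of all genes, with a median log2 difference of 0.27 against 0.00 for all genes. The groups did not overlap for 6 of the 11, against 44.2% of all genes tested in these cells. Anpep, the aminopeptidase N that trims peptides at the membrane, had 405 and 261 CPM in 2D against 295 and 320 CPM in 0D. Dpp4, dipeptidyl peptidase 4, had 71.9 and 69.2 CPM in 2D against 57.6 and 56.2 CPM in 0D, a log2 difference of 0.31 ± 0.08 (SE). Ggt1, the gamma-glutamyltransferase, had 44.8 and 27.8 CPM in 2D against 18.4 and 21.1 CPM in 0D, at 0.90 ± 0.20. Over all cells 5 of the 11 peptidases lay above 0, with a median of -0.03. Of 9 cytosolic peptidases, which split absorbed peptides into amino acids, 8 lay above 0 with a median of 0.13. Lap3, a leucine aminopeptidase, had 243 and 193 CPM in 2D against 172 and 191 CPM in 0D.

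The amino acid carriers were also mostly above 0 without passing. Of 9 apical amino acid transporters tested 7 lay above 0, with a median log2 difference of 0.19. The groups did not overlap for 7, against 44.2% of all genes, and of these 5 were higher and 2 lower in 2D, the proline carrier Slc6a20a and the glutamate carrier Slc1a1. Slc1a5, a glutamine carrier, had 15.9 and 14.0 CPM in 2D against 9.93 and 9.58 CPM in 0D, at 0.62 ± 0.13 (SE). Of 9 basolateral transporters 7 lay above 0, with a median of 0.15. Slc7a7, which exports cationic amino acids, went the other way, with 74.6 and 72.7 CPM in 2D against 92.2 and 86.9 CPM in 0D, at -0.28 ± 0.08. The 10 genes of the proton and sodium gradient that drives uptake had a median of 0.05, and 8 lay above 0. Slc9a3, the sodium-proton exchanger NHE3, had 59.4 and 34.9 CPM in 2D against 42.1 and 51.8 CPM in 0D, with overlap. Of 7 transcription factors reported to act on the human or rat Slc15a1 gene 3 lay above 0, with a median of -0.02. Cdx2, an intestinal homeobox factor, had 90.8 and 94.0 CPM in 2D against 106 and 111 CPM in 0D.

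Slc15a4 was detected in every gate and was somewhat higher in 2D over all cells, without passing the test. It had 778 and 700 UMIs in 2D against 684 and 647 in 0D, or 7.04 and 7.52 CPM in 2D against 6.01 and 5.84 CPM in 0D. The ranges did not overlap, as was so for 54.5% of the 15454 genes tested. The log2 difference was 0.41 ± 0.13 (SE, edgeR adjusted p = 0.200, unadjusted p = 0.0257), where 20.3% of genes had an unadjusted p under 0.05. Without 2D-1 the log2 difference was 0.55, and without 2D-2 it was 0.27. Cells with a Slc15a4 UMI made up 10.2% and 8.19% in 2D against 8.25% and 8.36% in 0D, which overlap, and 2.43% and 2.61% in 2D against 1.85% and 1.85% in 0D after thinning to 3000 UMIs, which do not. The gene (ENSMUSG00000029416) spans chr5:127595664-127632897.

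By class, Slc15a4 was higher in both 2D libraries in the stem, dividing, goblet and Paneth gates, and overlapped in the other gates. In the gates without overlap, 42.3% to 45.9% of genes did not overlap in either direction. Stem-gated cells had 8.74 and 9.22 CPM in 2D against 6.16 and 5.59 CPM in 0D, where 45.9% of genes with at least 50 UMIs did not overlap. Dividing cells had 7.54 and 7.77 CPM in 2D against 5.75 and 6.26 CPM in 0D, where the share without overlap was 42.3%. Paneth-gated cells had the lowest level, 3.09 and 2.59 CPM in 2D against 2.01 and 2.46 CPM in 0D, where that share was 45.9%. These gates were not tested. Goblet-gated cells had 8.38 and 10.1 CPM in 2D against 6.50 and 6.46 CPM in 0D, with a log2 difference of 0.41 ± 0.21 (SE, edgeR adjusted p = 0.597). In that test 45.3% of 11824 genes did not overlap, 0 passed (0%), 983 (8.31%) had an unadjusted p under 0.05 and DESeq2 called 21. Without 2D-1 the goblet log2 difference was 0.63, and without 2D-2 it was 0.12.

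Enterocyte-gated cells had 6.97 and 4.77 CPM of Slc15a4 in 2D against 5.67 and 5.23 CPM in 0D, at a log2 difference of 0.15 ± 0.22 (SE, edgeR adjusted p = 0.817) that became -0.18 without 2D-1. Enteroendocrine-gated cells had 7.14 and 11.2 CPM in 2D against 10.7 and 6.29 CPM in 0D, and tuft-gated cells had 6.33 and 14.9 CPM in 2D against 8.91 and 5.61 CPM in 0D. Both pairs of groups overlapped widely. The 106 immune-gated cells averaged 27.1 ± 9.42 CPM in 2D against 16.5 ± 10.7 CPM in 0D (SD, n = 2 each), on 9 UMIs in 2D and 6 in 0D. The genes most like Slc15a4 over the 28 sums were Med7 (r = 0.91), Trp53rka (0.90), Usp42, Ythdf1 and Fbxo28 (0.89 each).

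Genes of the immune signalling in which Slc15a4 takes part ranged from none detected to well detected. In enterocyte-gated cells Tlr7, Tlr8, Tlr9 and 5430427O19Rik, which encodes the Slc15a4-binding adaptor TASL, were at 0 in every library. Tlr3, a receptor for double-stranded RNA, had 24.9 and 17.9 CPM there in 2D against 16.8 and 20.5 CPM in 0D, and Unc93b1, a chaperone of endosomal Toll-like receptors, had 31.8 and 24.2 CPM in 2D against 24.0 and 26.5 CPM in 0D. Irf3, a transcription factor of the interferon response, had 47.4 and 51.3 CPM in 2D against 50.1 ± 0.141 CPM in 0D (SD, n = 2). All 3 overlapped between the groups. Irf7, an interferon-induced transcription factor, had 254 and 31.7 CPM in 2D against 34.6 and 30.3 CPM in 0D and so was high in 2D-1 alone. Of 8 sensing genes tested there 5 lay above 0, with a median of 0.09, and of 12 lysosomal genes 4 lay above 0, with a median of -0.07. Lamp1, a lysosomal membrane protein, had 211 and 206 CPM in 2D against 226 and 216 CPM in 0D.

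The rest of the family added little. Slc15a3, an endosomal carrier related to Slc15a4, had 5 and 3 UMIs in 2D against 4 and 7 in 0D, and 7 of these 19 UMIs lay in the 106 immune-gated cells. Slc15a5 had 1 and 1 UMIs in 2D against 1 and 2 in 0D. The 3 main genes seldom met in 1 cell at this depth. Slc15a1 and Slc15a2 were seen together in 6 cells, Slc15a1 and Slc15a4 in 58, and Slc15a2 and Slc15a4 in 49, of 575, 475 and 2591 cells positive for Slc15a1, Slc15a2 and Slc15a4.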

How the data were processed

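Per the labels' protocols, crypts were dissociated with EDTA and libraries made with a 10x Genomics 3′ kit. The authors deposited raw UMI counts per gene and barcode. Counting was by Cell Ranger 2.1.1 on mm10 per the submitters' processing notes, and by cellranger 7.0.0 per the file headers. Neither intron nor strand settings are given in these sources; intron counting would change counts per gene.

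Barcodes needed 500 or more genes and a mitochondrial share of UMIs up to 20%. No doublet caller was run; leaving out cells that scored at least 1 SD in 2 or more mature classes was an alternative. Marker scores are mean log-transformed UMIs per 10000, standardised over kept cells. UMIs were summed per library and gate, and 2D was tested against 0D with edgeR 4.0.16 (R 4.3.3, filterByExpr, TMM normalization, quasi-likelihood test, Benjamini-Hochberg threshold 0.05) in all, enterocyte-gated and goblet-gated cells. DESeq2 1.42.0 was an alternative. The edgeR procedure was tested on data simulated with a single fixed dispersion for all genes. That test does not show how the procedure performs at the spread of these libraries. SE is the log2 difference divided by the square root of F. Thinning drew 3000 UMIs per cell and left out shallower cells, 411 to 1060 per library. Floors take 3 counts. Intervals are exact Poisson or, for ratios, exact binomial, at 95%. The labels do not say whether libraries came from separate animals, so the spread behind each p-value may be technical. The members, gene lists and gates were chosen with earlier results of these data known. Named genes were the members and their family, list members past the threshold or highest by mean CPM, the strain and sex lists, 5 neighbours on either side, the scan's genes and the 5 most alike to each member. Ggt1, Slc1a5, Slc7a7, Slc9a3, Slc6a20a, Slc10a2, Lct, Hsd3b3 and Fabp6 were named after their values were seen. Of the gene IDs, 32235 matched GENCODE M21.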

Additional observations from a re-analysis of the deposited data

How the results depend on the processing

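The near absence of Slc15a2 in 2D held its direction in each alternative run: at most 10% mitochondrial UMIs, all deposited barcodes, doublet-like cells left out, thinning, and each library left out. Slc15a2 was picked for this contrast in these same libraries, so the direction was set by the selection and these runs are no separate support. The 2D minus 0D difference in share of positive cells was -0.86 percentage points after thinning, against -3.06 without it, as fewer UMIs per cell must give. Leaving out each library in turn moved that difference between -3.71 and -2.40 and the CPM difference between -2.65 and -1.79. For Slc15a1 the corresponding ranges were -0.65 to 0.56 points and -0.05 to 0.72 CPM, and for Slc15a4 -0.12 to 1.87 points and 1.11 to 1.59 CPM. Log2 differences ran between 0.17 and 0.48 (Slc15a1) and 0.27 and 0.55 (Slc15a4) in all cells, 0.71 and 1.18 (Slc15a1) and -0.18 and 0.34 (Slc15a4) in enterocyte-gated cells, and 0.12 and 0.63 (Slc15a4) in goblet-gated cells.

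Counts of called genes were unstable, and the cause was not tested. Leaving out 1 library gave 0 to 4045 genes in all cells, 42 to 1465 in enterocyte-gated and 23 to 4801 in goblet-gated cells, where the lone library is assumed to vary like the other group. DESeq2 called 703, 91 and 21. In enterocyte-gated cells, against 5 genes in the main test, the count was 0 with no filter on low counts, 14 at 10% mitochondrial UMIs, 2 without doublet-like cells and 8 at a gate lead of 1 SD. In goblet-gated cells it was 276 with no filter. A scan at 1/4 of the CPM and 50 UMIs, chosen after seeing the data, found 1 gene near absent in 0D, Ly6m.

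The labels do not say that replicate numbers pair the libraries. Deviations of same-numbered libraries correlated at 0.209 in all, -0.104 in enterocyte-gated and 0.0994 in goblet-gated cells. A replicate block called 0, 40 and 220 genes, with Slc15a1 at 0.93 (edgeR adjusted p = 0.186) in enterocyte-gated cells. A crossed block there, added after seeing the data, called 117 genes, Slc15a1 among them at 0.95 (edgeR adjusted p = 0.0309). With 2 libraries a group, a missed threshold does not show that levels are alike.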
